A study of Mus musculus with 3 samples.

Results

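The leukocyte adhesion molecules described here are 9 genes: Vcam1, Icam1, Icam2, Sele, Selp, Selplg, F11r, Jam2 and Jam3. They were found by matching the RefSeq accession of each non-control probe to a mouse gene symbol, which gave 12 probes for these 9 genes among the 20882 genes named in the same way. Vcam1, Selplg and Jam2 had 2 probes each and the other 6 genes had 1. All 12 probes were well above background, by the scanner software's own test, on all 3 arrays.

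The arrays measured total RNA of primary endothelial cells (MCECs) of C57BL/6 mice, cultured from the cavernous (erectile) tissue of the penis. Cells were kept for 48 h in glucose labelled 5 mmol (normal glucose), in glucose labelled 30 mmol (high glucose), or in the same high glucose with DKK2, a secreted protein of the Dickkopf family that acts on Wnt signalling. No DKK2 dose was given in the labels, and the maintenance medium of the cells held serum, heparin and vascular endothelial growth factor A. Each condition was 1 one-colour array of RNA pooled from 3 samples, and the labels do not tell whether those samples were separate animals or cultures. With 1 array per condition there was no test and no replicate error. The position of an array on the shared slide and its condition cannot be told apart.

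Leukocytes leave the blood in steps. Selectins, the lectins E-selectin (Sele) and P-selectin (Selp) on activated endothelium, catch sugar-bearing ligands such as PSGL-1 (Selplg) on leukocytes and let the cells roll. Immunoglobulin-family receptors on the endothelium, VCAM-1 and the ICAMs, then hold the cells through integrins, and the junctional adhesion molecules (JAMs) sit at the contacts between endothelial cells, where many leukocytes cross.

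Values are the processed signals of the scanner software, in arbitrary units. Differences between arrays are on the log2 scale after each array was set relative to its own 75th percentile, which was 1201 with normal glucose, 2380 with high glucose and 2417 with DKK2. A signal that was higher by the same factor as this percentile therefore has a difference of 0, although its unscaled values differ. The error given beside a difference is the scanner software's own SD, carried to the log2 difference, with a median of 0.20 over probes. It covers the reading of the spots and not the spread between cultures. A gene is called higher or lower where it differed at least 2-fold. A second background correction, normexp on the local background around each spot, is given beside the values, since dim probes depended on it. Under normexp the median of all genes was itself -0.26 for high against normal glucose, 0.09 for DKK2 against high glucose and -0.25 for DKK2 against normal glucose, beside 0.09, 0.08 and 0.12 without it. Normexp values are to be read relative to those medians. For high against normal glucose most dim genes of the lists below lay further under 0 than that median. A dim gene is therefore also to be read beside genes of its brightness.

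The endothelial label was set against 20 endothelial markers, of which 18, 20 and 19 were well above background with normal glucose, high glucose and high glucose with DKK2. Their summed signal over the 75th percentile was 7.43, 9.06 and 9.78. Pecam1 was read at 135, 369 and 435 in that order, Cdh5 at 195, 568 and 311, and Kdr, the main receptor of vascular endothelial growth factor A, at 3648, 9128 and 10901. Kdr was the brightest of the 20, while Tie1 was read at 9.84, 27 and 34.8 and Tek at 45.7, 118 and 54.3. Emcn and Erg were not well above background with normal glucose, nor was Erg with DKK2. Markers of other cells were present too. The 13 fibroblast markers were all well above background on all 3 arrays, and their sum on the same scale was 617, 575 and 417. The brightest of them, Dcn, was read at 268191, 497831 and 348699. Pdgfra was read at 21058, 43211 and 28606, and Postn at 339, 993 and 185. Sums of different lists come from different probes and are not set against each other. The 18 measured macrophage and leukocyte markers were also all above background, with sums of 5.48, 5.9 and 14.8. In RNA of a whole culture, fewer cells of a type and less RNA per cell cannot be told apart. The signal of a member gene cannot be assigned to a single cell type either.

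With high glucose alone, Icam2 was the only one of the 9 genes to differ at least 2-fold from normal glucose. It was higher, so 11.1% of the members were called higher and 0 lower, beside 2.67% higher and 5.73% lower among all 16762 genes compared. The other 8 lay between -0.15 and 0.90. With DKK2 in high glucose, set against high glucose alone, F11r and Sele were higher and Icam2 and Vcam1 were lower. Each direction held 22.2% of the members, beside 5.08% higher and 4.85% lower among 17821 genes. Set against normal glucose, the DKK2 array had F11r, Sele, Icam2 and Jam2 higher (44.4%) and Vcam1 lower (11.1%), beside 10.5% higher and 10.4% lower among 16672 genes. Each pair of these comparisons shares an array, so the counts are not independent of each other.

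**Figure D1:**
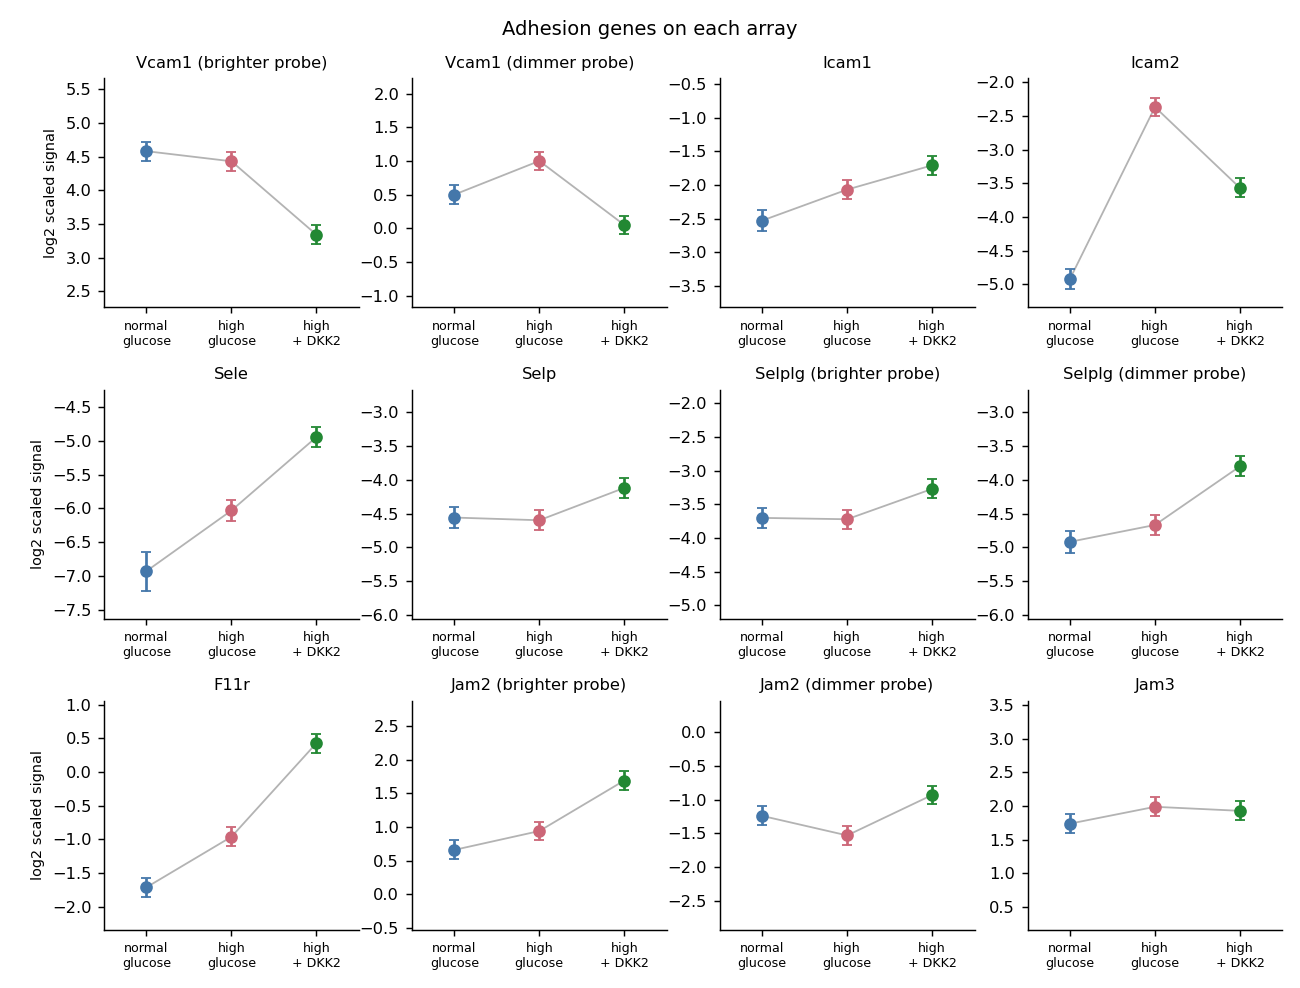
Log2 processed signal relative to the 75th percentile of the array (vertical axis) for each of the 12 probes on the normal glucose, high glucose and high glucose with DKK2 arrays, 1 array per condition, with bars of 1 scanner error SD. Panels have different vertical ranges of one span. The F11r probe climbs at both steps, by 0.75 and 1.39, while the brighter Vcam1 probe differs by -1.09 at the second step and Icam2 peaks on the high glucose array.

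The selectins and their ligand were read at low signal. Sele, which is made mainly by activated endothelium and is a classical target of inflammatory cytokines, was read at 9.83 with normal glucose, 36.3 with high glucose and 78.6 with DKK2. The DKK2 array was the highest and the normal glucose array the lowest. After scaling, Sele was 0.90 higher with high glucose than with normal glucose (error 0.33, 1.87-fold), and 1.09 higher with DKK2 than with high glucose alone (error 0.22, 2.13-fold). The step between normal glucose and DKK2 was 1.99 (3.97-fold). That order rests on the background. The unsubtracted median pixel signals of the single Sele spot were 45, 76 and 109.5, with local backgrounds of 21.5, 28 and 26, and normexp gave -1.39 for high against normal glucose, 0.49 for DKK2 against high glucose and -0.90 for DKK2 against normal glucose. Only the second step kept its sign, and it was no longer 2-fold.

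Selp, which platelets and endothelial cells store in granules and bring to the surface within minutes, was spotted 10 times on each array. Its mean signal over the spots that were not marked as outliers was 51, 98.3 and 139. The usable spots ranged from 43.5 to 59.5 with normal glucose, from 88.4 to 110 with high glucose and from 130 to 149 with DKK2, so the spots of the 3 arrays did not overlap before scaling. The spots left out as outliers were 2, 2 and 3, and they read 23.5 to 25.4, 40.9 to 42.8 and 66 to 204. After scaling, Selp differed by -0.04 between high and normal glucose (error 0.21) and by 0.47 between DKK2 and high glucose. The first is smaller than the scanner error, and the second is larger than the error but under the 2-fold rule. Normexp gave -1.01 and 0.34.

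Selplg, the PSGL-1 ligand that leukocytes present to selectins, had a brighter probe at 92.2, 180 and 250 and a dimmer one at 39.6, 93.2 and 174. Both were highest with DKK2. Against high glucose the DKK2 array was 0.45 higher on the brighter probe and 0.88 higher on the dimmer one, so the probes differed in size and shared the direction. Against normal glucose, high glucose gave -0.02 on the brighter probe and 0.25 on the dimmer, with -0.69 and -0.93 under normexp. DKK2 against normal glucose gave 0.43 and 1.12. Under normexp it was -0.29 on both probes, beside an all-gene median of -0.25, so DKK2 was not highest there.

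The immunoglobulin-family receptors differed between arrays in different directions. Vcam1, the endothelial ligand of the integrin VLA-4 on monocytes and lymphocytes, was read by its brighter probe at 28743 with normal glucose, 51474 with high glucose and 24554 with DKK2. The unscaled signal was highest with high glucose, but after scaling the normal and high glucose arrays differed by -0.15 (error 0.20), which is within the error. The DKK2 array was lower, with differences of -1.09 from high glucose (2.13-fold) and -1.24 from normal glucose (2.36-fold), and of -1.06 and -1.10 under normexp. The dimmer probe, at 1701, 4749 and 2505, was also lower with DKK2 than with high glucose, with a difference of -0.94. The 2 probes disagreed on the first step, at -0.15 and 0.49, so Vcam1 has no settled direction between normal and high glucose. For DKK2 against normal glucose the dimmer probe gave -0.45 and the mean over both probes -0.84, under the 2-fold rule.

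Icam1, the ligand of the leukocyte integrins LFA-1 and Mac-1 that inflammatory stimuli induce on many cells, was read at 207, 567 and 738. It was highest with DKK2, and the steps were 0.46 and 0.36 after scaling, adding to 0.82 (1.77-fold) between normal glucose and DKK2. None reached 2-fold, and normexp gave -0.09 for the first step and 0.28 for the second.

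Icam2, a constitutive endothelial ligand of LFA-1 that lies mainly at cell junctions, was read at 39.6, 462 and 204. The high glucose array stood above both others. Icam2 was 2.56 higher with high glucose than with normal glucose (error 0.21, 5.88-fold), lower with DKK2 than with high glucose, at -1.20 (2.30-fold), and 1.35 higher with DKK2 than with normal glucose (2.56-fold). The single spot had an unsubtracted signal of 81.5 and a local background of 22 with normal glucose, beside 573.5 and 26 with high glucose and 279 and 24 with DKK2. Normexp, whose offset pulls dim signals together, gave 0.89, -0.96 and -0.07, and 1.23, -1.09 and 0.14 without the offset. The peak with high glucose kept its direction under both. The difference between DKK2 and normal glucose was near 0 under both, where the all-gene medians were -0.25 and -0.23. Among endothelial markers, 4 of 18 were higher and 0 lower with high than with normal glucose, with a median of 0.51. Under normexp the counts were 0 and 2 and the median -0.22, and without its offset they were 2 and 3 and -0.10. Among all genes 172 of 16750 were higher and 3930 lower under normexp, and 192 and 4167 of 16748 without its offset. With DKK2 against high glucose 0 of 19 endothelial markers were higher and 5 lower, and 0 and 1 under normexp. The all-gene counts under normexp were 505 and 478 of 17823 there. The part of the endothelial markers in the Icam2 difference was not tested.

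The JAM differences kept their direction under normexp. F11r, which encodes JAM-A at the tight junctions of endothelial and epithelial cells and on platelets, was read at 367, 1227 and 3259. The DKK2 array was highest and the normal glucose array lowest. Its differences were 0.75 for high against normal glucose (1.69-fold), 1.39 for DKK2 against high glucose (2.62-fold) and 2.14 for DKK2 against normal glucose (4.41-fold). Under normexp they were 0.49, 1.35 and 1.84, so the last 2 remained past the 2-fold rule.

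Jam2, which encodes JAM-B, was read by its brighter probe at 1900, 4561 and 7775. The array with DKK2 was highest. It was 0.75 higher than high glucose (1.68-fold) and 1.02 higher than normal glucose (2.03-fold), with 0.73 and 1.09 under normexp. The second lay just past the 2-fold rule, and it was 0.91 with quantile normalization, 0.88 with cyclic loess and 0.67 as the mean over both probes, all under it. The dimmer probe, at 507, 825 and 1271, gave 0.60 and 0.32, and the probes had opposite signs for high against normal glucose, at 0.28 and -0.29. Jam3, the partner of JAM-B across cell contacts, was read at 4007, 9450 and 9224, and after scaling it differed by 0.25 between high and normal glucose and by -0.06 between DKK2 and high glucose (error 0.20). The 2 JAMs that bind each other therefore had different readings with DKK2, and the difference between those readings was not tested.

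**Figure D2:**
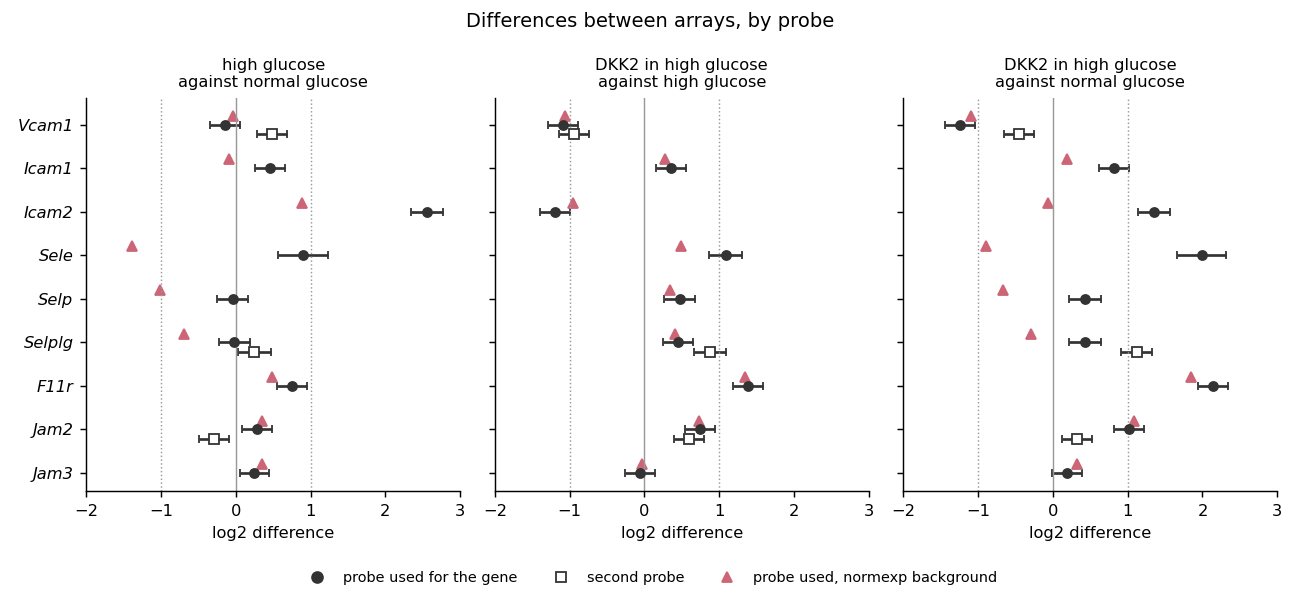
Log2 difference for each of the 12 probes in the 3 comparisons, with bars of 1 scanner error SD. Filled circles are the probe used for the gene, open squares the second probe and triangles the normexp value of the probe used, and dotted lines mark 2-fold. F11r and the brighter Vcam1 probe pass it against high glucose under both corrections, while Sele and Icam2 shift with the correction.

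By point values over the 9 genes, 6 were highest on the DKK2 array, 2 on the high glucose array and 1 on the normal glucose array. Among 16649 genes the shares were 43.5%, 24.2% and 32.3%. Under normexp, DKK2 against normal glucose was -0.90 for Sele, -0.67 for Selp and -0.29 for Selplg, beside an all-gene median of -0.25. These 3 dim genes were then no longer highest with DKK2. The shares of all genes were not counted under normexp. Sele, Icam1, F11r and Jam2 were higher at both steps, as were 32.4% of genes. Under normexp the first step was -1.39 for Sele and -0.09 for Icam1, below and above the all-gene median of -0.26. Other genes about as dim as Sele with normal glucose had like values there, among them Tie1 at -1.59, Sox17 at -1.33 and Myh11 at -1.48. The value of Sele is therefore not read as a fall relative to genes of its brightness. F11r and Jam2 kept both directions under normexp, although the dimmer Jam2 probe was at -0.29 for the first step without it. Icam2 was higher and then lower. At least 1 step of Jam3 (-0.06), Selp (-0.04), Selplg (-0.02) and Vcam1 (-0.15) was within the scanner error, so the order of those 2 arrays is not settled for these 4 genes. The median difference over the 9 genes was 0.28, 0.45 and 0.82 for high against normal glucose, DKK2 against high glucose and DKK2 against normal glucose, beside the all-gene medians of 0.09, 0.08 and 0.12. With normexp the members' medians were -0.04, 0.34 and -0.07. In each comparison the members' median was above that of all genes under both corrections. The members were chosen with earlier results of these data known, and the comparisons share arrays, so this is a description and not a test.

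**Figure D3:**
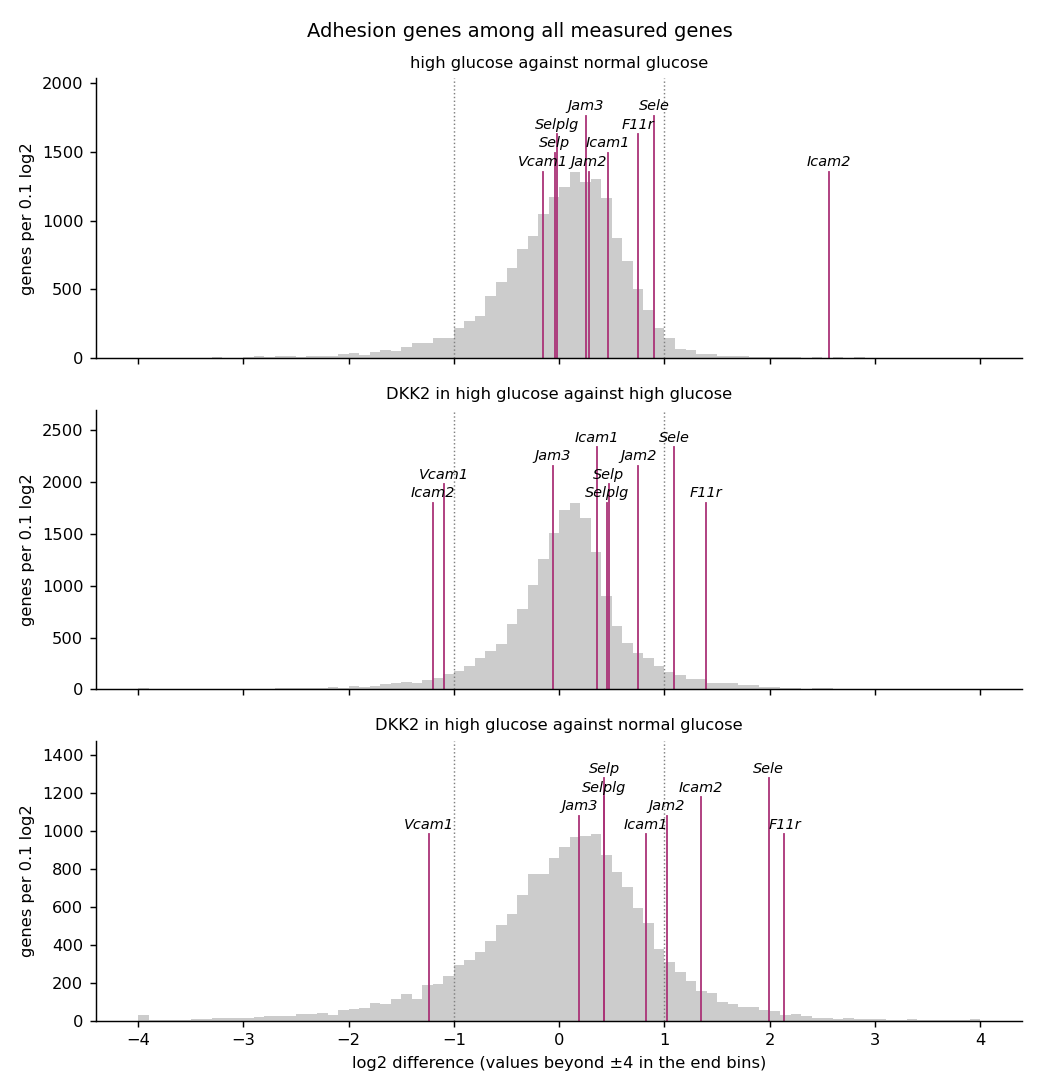
Histograms of the log2 differences of all genes compared (vertical axis, genes per bin of the log2 difference), 1 panel per comparison, with the 9 members as labelled lines and 2-fold as dotted lines. Icam2 lies far to the right for high against normal glucose, at 2.56, and F11r and Vcam1 lie at 1.39 and -1.09 for DKK2 against high glucose.

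Of the 4 members that were higher at both steps before normexp, 3 have an entry in RefSeq's table of promoter windows (build GRCm38.p6, 250 bases before to 50 after the start). They are printed because these genes shared that direction, with capitals on 3 motifs that were chosen after the sequences were seen: GGANNTTCC, the form of a kappaB site, TATAAA, the TATA box, and TGANTCA, the form of an AP-1 site. Both strands were searched. All 3 windows are on the + strand, at chr9:21015690-21015989 for Icam1, chr1:164047984-164048283 for Sele and chr1:171437311-171437610 for F11r.
Icam1: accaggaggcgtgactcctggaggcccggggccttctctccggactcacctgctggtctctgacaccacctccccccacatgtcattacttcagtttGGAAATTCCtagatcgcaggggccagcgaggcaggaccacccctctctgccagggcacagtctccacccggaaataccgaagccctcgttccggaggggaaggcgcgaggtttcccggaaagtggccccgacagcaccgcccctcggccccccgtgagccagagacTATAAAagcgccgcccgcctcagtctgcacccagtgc
Sele: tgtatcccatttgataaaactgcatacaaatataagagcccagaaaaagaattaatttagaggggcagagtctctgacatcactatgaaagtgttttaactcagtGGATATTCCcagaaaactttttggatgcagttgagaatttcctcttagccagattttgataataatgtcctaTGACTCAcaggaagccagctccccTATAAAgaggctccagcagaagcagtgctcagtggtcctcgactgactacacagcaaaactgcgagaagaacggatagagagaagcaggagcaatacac
F11r: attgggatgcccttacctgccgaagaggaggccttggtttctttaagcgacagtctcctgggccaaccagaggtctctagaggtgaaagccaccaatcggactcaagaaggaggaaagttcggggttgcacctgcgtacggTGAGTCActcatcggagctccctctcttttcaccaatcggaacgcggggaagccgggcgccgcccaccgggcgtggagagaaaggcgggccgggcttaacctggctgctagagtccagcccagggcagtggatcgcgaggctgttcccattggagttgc
Icam1 and Sele each hold a kappaB-like match, GGAAATTCC at 153 and GGATATTCC at 145 bases before the start, and each holds TATAAA. In Sele it lies 49 bases before the start, and in Icam1 it lies 13 bases after the annotated start, away from the usual place of a TATA box. The AP-1 form was found in Sele, 73 bases before the start, and in F11r, 109 bases before it. Among all 32851 promoters of the same length, 4.3% hold GGANNTTCC, 13.6% TATAAA and 7.8% TGANTCA. The fourth member with an entry, Selp, holds TGATTCA 139 bases before the start. These are matches of letters only.

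Among 13 measured counter-receptor genes, mostly integrin subunits and some of them widely expressed, 0 differed 2-fold between high and normal glucose, and 4 were higher and 0 lower with DKK2 than with high glucose, with 11 of 13 above 0 and a median of 0.55 (0.54 under normexp). Among all genes 5.08% were higher, 4.85% lower and 57.6% above 0 in that comparison, and these shares, with 2.67% and 5.73% for high against normal glucose, are the background for each list below. Under normexp 505 of 17823 genes were higher and 478 lower with DKK2 against high glucose, and 172 and 3930 of 16750 for high against normal glucose. The 2 counter-receptor genes below 0 were Itgav at -0.19 and Itgb3 at -0.82, with 0.42 and 0.20 on their other probes. Itgb1, above 0 at 0.46, had -0.20 on its other probe, so the direction of these genes is not settled. Itgb7, the beta-7 integrin subunit of lymphocyte homing, was read at 543, 817 and 8054, which is 3.28 higher with DKK2 than with high glucose. Itgb2, the shared beta subunit of LFA-1 and Mac-1 and a partner of the ICAMs, was read at 253, 416 and 1361, or 1.69 higher. Itgal, the LFA-1 alpha subunit, was 1.57 higher on its brighter probe (1.06 under normexp) and 0.08 on the other. Itgam, the Mac-1 alpha subunit, differed by 0.04 on its brightest probe, and its other probes disagreed in direction. Itga4, the alpha subunit of the Vcam1 receptor, was read at 342, 909 and 1377, with differences of 0.42 and 0.58.

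Markers of leukocytes were read beside these genes. Of 18 macrophage and leukocyte markers, 12 were higher and 0 lower with DKK2 than with high glucose, all 18 were above 0, and the median was 1.64 (1.45 under normexp). Ptprc, the pan-leukocyte CD45, was read at 29.6, 57.2 and 108. The summed platelet markers were 0.351, 0.478 and 2.48, and the summed epithelial markers 0.469, 0.472 and 2.32, so both sums were highest on the array where F11r was highest. Single genes made up most of each sum with DKK2, since Pf4 was read at 235, 738 and 5391 and Krt18 at 79.5, 286 and 4211. With DKK2 against high glucose, 2 of 5 measured platelet markers were higher and 0 lower, with 3 above 0. Of 7 measured epithelial markers 2 were higher and 1 lower, with 5 above 0. Those below 0 were Itga2b at -0.72, Treml1 at -0.10, Epcam at -1.26 (-0.18 under normexp) and Cldn7 at -0.07. Of the epithelial markers, Epcam and Cldn4 were not well above background with normal glucose, and Cdh1 and Krt8 were above it only with DKK2. Endothelial markers had 0 of 19 higher and 5 lower with DKK2 than with high glucose, with a median of -0.29, and under normexp the counts were 0 and 1 and the median -0.16. Their summed signal was highest with DKK2, as given above, although 11 of the 19 were below 0 and 8 above. Most of that sum came from Kdr, Egfl7 and Eng, read at 10901, 5713 and 3150 with DKK2. Fibroblast markers had 0 of 13 higher and 4 lower with DKK2 than with high glucose. All 13 were below 0, as Vcam1 was, with a median of -0.54 (-0.58 under normexp). The summed smooth muscle and pericyte markers were 95.8, 61.6 and 39.5. Of 11 measured, 0 were higher and 1 lower in that comparison, with 10 below 0, 1 above and a median of -0.33 (-0.24 under normexp). The part of these shifts in the members' differences was not tested.

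Among 25 other endothelial adhesion and transmigration genes, 1 was higher and 3 lower with DKK2 than with high glucose, with the same counts under normexp. Aoc3, the amine oxidase known as vascular adhesion protein, was read at 482, 2520 and 216, a difference of 1.40 between high and normal glucose and of -3.57 between DKK2 and high glucose. It thus went up and down like Icam2, with a larger drop. The scavenger receptors Stab1 and Stab2 differed in opposite directions with DKK2 against high glucose, at 1.87 and -1.84, and Alcam, an adhesion molecule of the immunoglobulin family, was lower at -1.37. Pvr, the poliovirus receptor of cell junctions, was lower with high than with normal glucose, at -1.03. Against normal glucose, the DKK2 array had Ninj1, an adhesion protein of nerve and vessel, higher by 1.60 and Cd34, a sialomucin of endothelium, higher by 1.25. Aoc3 (-2.17), Stab2 (-2.14) and Alcam (-2.07) were lower there, with 3 of 24 genes called each way, beside 10.5% and 10.4% of all genes.

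The 18 membrane linkers and partners, which tie adhesion receptors and JAMs to the cell skeleton, had medians of 0.16 for high against normal glucose and -0.02 for DKK2 against high glucose, with 0 higher and 2 lower in the first. Actn1, the actin cross-linker alpha-actinin, was read at 15595, 4778 and 3960, and was lower with high than with normal glucose, at -2.69. Afdn, a JAM-A partner, was lower in the same comparison at -1.04. Among 12 glycan enzymes of selectin ligands 0 were higher and 1 lower with high than with normal glucose, and among 13 there was 1 higher and 0 lower with DKK2 than with high glucose. Fut4, a fucosyltransferase, was read at 95, 215 and 942, or 2.11 higher with DKK2 than with high glucose, with 0.55 on its other probe. Chst2, a sulfotransferase, gave -1.49 for high against normal glucose and 0.36 on its other probe.

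The list of NF-kappaB and inflammatory signalling genes holds inhibitors of the pathway, such as Nfkbia, Nfkbib and Tnfaip3, beside its activators. Its counts are thus no measure of induction. Of 20 of its genes, 0 were higher and 1 lower with high than with normal glucose. Of 21, 2 were higher and 0 lower with DKK2 than with high glucose, where normexp gave 0 and 0. Nfkb2, which encodes an NF-kappaB subunit, was read at 3157, 2729 and 2494, a difference of -1.20 between high and normal glucose. Rela, another subunit, was read at 13993, 45274 and 56720, and was higher with DKK2 than with normal glucose, at 1.01 (1.08 under normexp). Of 9 sheddases and negative regulators, 2 were higher and 0 lower with high than with normal glucose, and 1 was higher and 1 lower with DKK2 than with high glucose. Under normexp the first pair of counts was 0 and 0, with Nos3 going from 1.26 to 0.19 and Ptprj from 1.22 to 0.47, and the second was 1 and 1. Adam8, a metalloprotease of leukocytes, was read at 5943, 15779 and 50922, or 1.67 higher with DKK2 than with high glucose. Klf2, the flow-induced factor that holds down endothelial inflammation genes, was read at 5395, 7715 and 3286, a difference of -1.25.

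**Figure D4:**
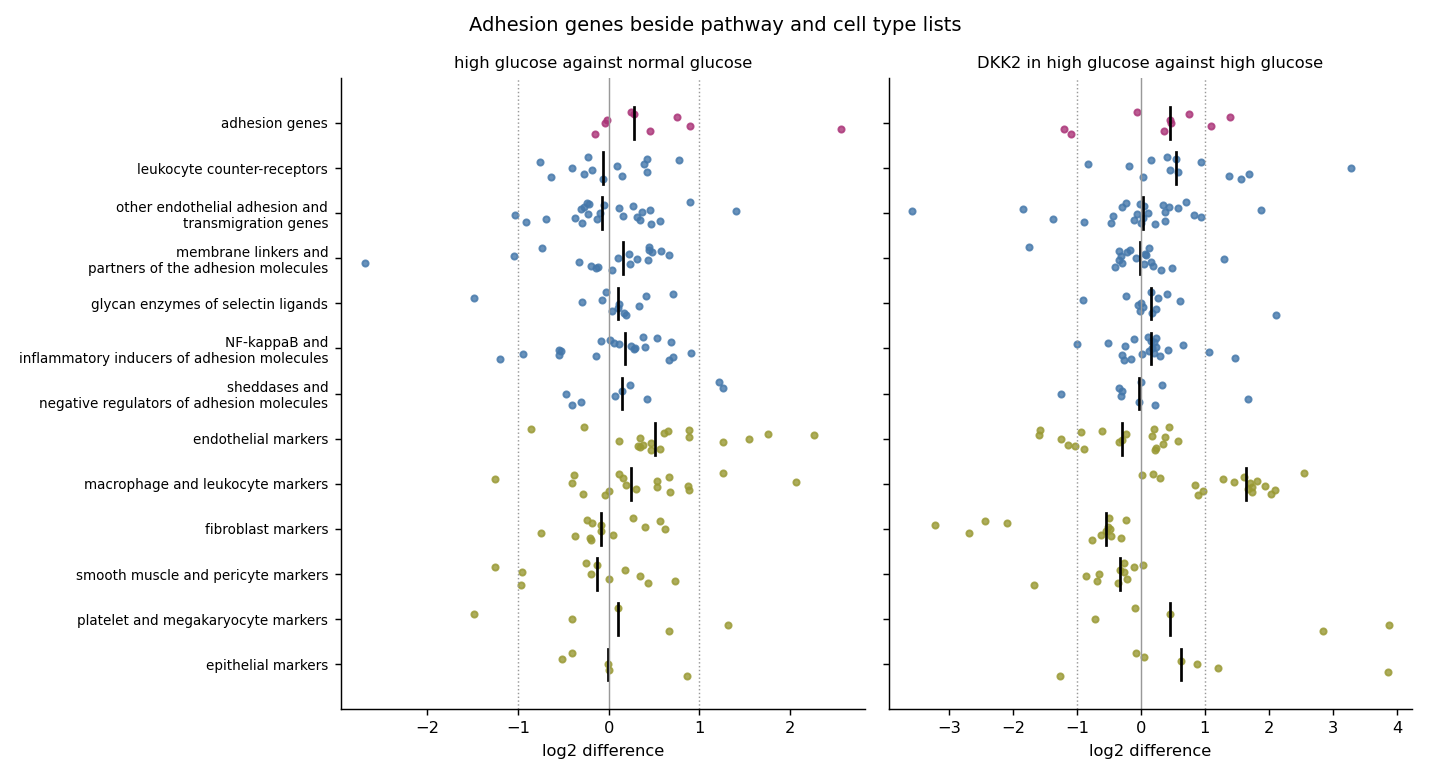
Log2 difference of each measured gene (points) in the 9 adhesion genes, the 6 pathway lists and the 6 cell type lists, for high against normal glucose and for DKK2 in high glucose against high glucose, with black bars at the medians and dotted lines at 2-fold. The macrophage and leukocyte markers have a median of 1.64 in the second panel, the counter-receptors 0.55 and the adhesion genes 0.45.

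Other genes with a pattern like each member's were found as those with the nearest pair of differences over the 3 arrays, among 12152 or 12153 genes with a signal of at least 100 on all 3. For Vcam1 these were Amer1, Aldh3a1 and Slc25a27, at distances of 0.029, 0.051 and 0.06 log2 units. For F11r they were Neto1, Slc11a1 and Cdt1, at 0.034, 0.041 and 0.114, and for Sele they were Vipr2, Spc25 and Ormdl2, at 0.012, 0.03 and 0.034. For Jam2 they were Tlr7, H2ac20 and Tmem167, for Icam1 Frmd4a, Plpp2 and Vmp1, for Selp St7, Bnc2 and Zbtb6, and for Jam3 Hnrnpa3, Fbxo5 and Chmp2b. Within 0.2 log2 units lay 54 genes for Vcam1, 18 for F11r and 28 for Sele. There were 212 for Jam2, 491 for Selp, 687 for Icam1 and 1175 for Jam3, whose differences were near 0. That radius is about the scanner error of a difference. The genes named for Jam2, Selp, Icam1 and Jam3 are therefore a few among many with a like pattern. For Icam2 no gene lay within 0.2, and the nearest were Cercam at 0.521, Saa3 at 0.746 and Ubfd1 at 0.875. Icam2 itself was under 100 with normal glucose, and genes as dim as that were not among the candidates. One of them is the endothelial marker Robo4, read at 55.2, 525 and 176, with differences of 2.26 and -1.60 and of 0.88 and -1.31 under normexp. Robo4 was picked by hand from the endothelial list and does not stand for it. With DKK2 against high glucose, 8 of the 19 measured endothelial markers were above 0 and 11 below.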

How the data were processed

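Total RNA of 3 conditions was labelled with Cy3 and hybridised to one-colour Agilent mouse arrays, 1 array per condition. The authors deposited scanner output made with Feature Extraction 11.5.1.1, per the file headers, in which intensity is a background-subtracted processed signal per spot. They also deposited a table of the same signals, which matched the scanner values to within a relative difference of 0.001 for 99.7% to 99.8% of probes and was used as an alternative. From the deposited intensity values, outlier spots (110 to 136 per array) and 1377 control spots were left out, spots of a probe were averaged on the log2 scale, and the 75th percentile over 39429 probes was subtracted from each array (Python 3.11.15, numpy 2.4.6, pandas 2.3.3). Each gene was read by its brightest probe, among probes that passed the well-above-background test on 1 or more arrays, and was compared between arrays that both passed. Passing probes were 76.6%, 84.7% and 83.9% of the total. Names came from RefSeq accessions, which gave 1 symbol for 27502 probes and none for 11927. A gene was called at a 2-fold difference, with no test, since each condition had 1 array. Alternatives were normexp with offset 50 (limma 3.58.1 in R 4.3.3), on the median signal, quantile, median and cyclic loess scaling, no filter, a signal of at least 100, the deposited table, the mean of a gene's probes, and 1.5-fold and 3-fold rules. Normexp without an offset was added after seeing the data. The script was tested on simulated data. Members and lists were chosen with earlier results of these data known. Named genes of a list were those past 2-fold in both corrections, up to 3 per direction and comparison, plus defining receptors and markers, which were named whatever their value. Motifs were searched in RefSeq promoter windows. A few results that the rule for named genes would give are not reported here.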

Additional observations from a re-analysis of the deposited data

How the results depend on the processing

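Of 231 alternative values for the 9 genes, 201 stayed within 1 scanner error SD of the reported value, 27 others moved by more and 3 reversed, which here means a value past 2-fold that changed sign. Part of the 201 could not have moved. No filter and a signal of at least 100 leave a member's value as it is, and the mean over probes does so for the 6 genes with 1 probe. The deposited table holds the same signals. The 201 are therefore no measure of robustness. The reversals were all for DKK2 against normal glucose, where the all-gene median was -0.25 with normexp and -0.23 without its offset. They were Icam2 at -0.07 with normexp, and Sele at -0.90 with normexp and -0.93 with normexp without its offset, the latter added after seeing the data. Values under 2-fold also changed sign: for high against normal glucose Sele was -1.39 with normexp and -1.81 without its offset, Icam1 -0.09 with normexp, Vcam1 0.17 with the mean over probes and Selplg, at -0.02, between 0.02 and 0.12 with quantile normalization, median scaling or the mean over probes. For DKK2 against normal glucose Selp was -0.67 and -0.62 and Selplg -0.29 and -0.18 with normexp and without its offset. For high against normal glucose, members counted as higher and lower were 0 and 2 with normexp, 0 higher at signals of at least 100, 2 lower with normexp without its offset and 3 higher with the 1.5-fold rule. A signal of at least 100 kept 5 of the 9 members in each comparison. It left out Icam2, Sele, Selp and Selplg, so their calls were dropped there and not reversed. All genes counted as higher and lower were 172 and 3930 with normexp, 192 and 4167 without its offset, 1103 and 2128 with no filter, 219 and 582 at signals of at least 100, 2340 and 2276 with the 1.5-fold rule, and 105 and 323 with the 3-fold rule. Genes compared were 16750 with normexp, 16748 without its offset, 20872 with no filter and 12162 at signals of at least 100. For DKK2 against high glucose, members were 1 and 1 with normexp and at signals of at least 100, 1 higher without the offset, and 0 and 0 at 3-fold. All genes were 505 and 478 of 17823 with normexp, 394 and 492 of 12162 at signals of at least 100, 2330 and 2012 at 1.5-fold, 284 and 321 at 3-fold, and 1350 lower with no filter. For DKK2 against normal glucose, members were 2 higher with normexp, without its offset and at signals of at least 100, 0 lower with the mean over probes, and 2 and 0 at 3-fold. All genes were 938 and 4004 of 16661 with normexp, 1012 and 4220 of 16659 without its offset, 1058 and 1138 of 12162 at signals of at least 100, 4029 and 3202 at 1.5-fold, 574 and 748 at 3-fold, and 2673 higher with no filter. The share of calls that were higher was 31.8% for high against normal glucose, 4.2% with normexp and 4.4% without its offset, and for DKK2 against normal glucose 50.2%, 19.0% and 19.3%. The cause of these shifts was not tested. No paired analysis was possible because each condition had 1 array, and no array could be left out. Low signal limits Sele, Selp, Selplg and Icam2 with normal glucose, all read under 100 there, whose differences from that array changed in size or sign with normexp.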
